A study of Macaca fascicularis with 4 samples.

Results

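The genes described here carry the insulin signal from its receptor to the glucose transporter GLUT4 and to the enzyme that restrains fat breakdown. They are INSR, IRS1, IRS2, PIK3R1, AKT1, AKT2, TBC1D1, TBC1D4, SLC2A4 and PDE3B, chosen by name, and all 10 were found among the 13982 genes named in the count files. The libraries were full-length RNA libraries of muscle, oWAT, sWAT and liver from the cynomolgus monkey (Macaca fascicularis), 1 library per tissue, each made from RNA of 5 monkeys combined before library preparation. The labels give no treatment, age or genotype, and they leave the abbreviations oWAT and sWAT unexplained; WAT usually stands for white adipose tissue. With 1 library per tissue there was no replicate, no p-value was computed, and every interval covers counting error only, not the spread between animals.

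Insulin binds a receptor tyrosine kinase, which phosphorylates insulin receptor substrates; these recruit phosphatidylinositol 3-kinase, whose lipid product leads to activation of the kinase AKT. In muscle and adipocytes AKT phosphorylates the Rab GTPase-activating proteins TBC1D4 and TBC1D1, and this releases vesicles that carry GLUT4 to the cell surface. In adipocytes the same signal activates the phosphodiesterase PDE3B, which breaks down cyclic AMP and so slows lipolysis. Liver takes up glucose through another transporter, GLUT2, that does not depend on this vesicle traffic.

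Counts assigned to named genes ran from 383896 in sWAT to 439872 in muscle, so that 1 count equals 2.27 CPM (counts per 1000000 counts of named genes) in muscle, 2.52 CPM in oWAT, 2.60 CPM in sWAT and 2.29 CPM in liver. The 10 genes had 2013 counts in all. Of them, 7 had at least 10 counts in some library; AKT1, IRS1 and IRS2 did not, like 40.8% of all named genes. Each tissue label was checked against a list of markers. Myofibre markers summed to 158644 CPM in muscle and to between 135 and 141 CPM in the other 3 libraries, and hepatocyte markers to 195527 CPM in liver and at most 12.6 CPM elsewhere. The hepatocyte marker HP was at 0 in all 4 libraries, liver included. Adipocyte markers summed to 23150 CPM in oWAT and 27458 CPM in sWAT, against 2523 CPM in muscle and 8120 CPM in liver. In liver 5 of the 15 adipocyte markers (LEP, PLIN1, CIDEC, CIDEA and PPARG) were at 0, and in muscle CIDEC and CIDEA were.

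A gene was called higher or lower between libraries where the higher library had at least 10 counts and the exact 95% Clopper-Pearson interval of the ratio of CPM values lay wholly above 2 or wholly below 0.5. All levels below are compared between tissues for the same gene. Levels of different genes are not set against each other, because transcript lengths were not used. Tissue RNA comes from mixed cells, and fewer cells of a type and less RNA per cell cannot be told apart.

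**Figure D1:**
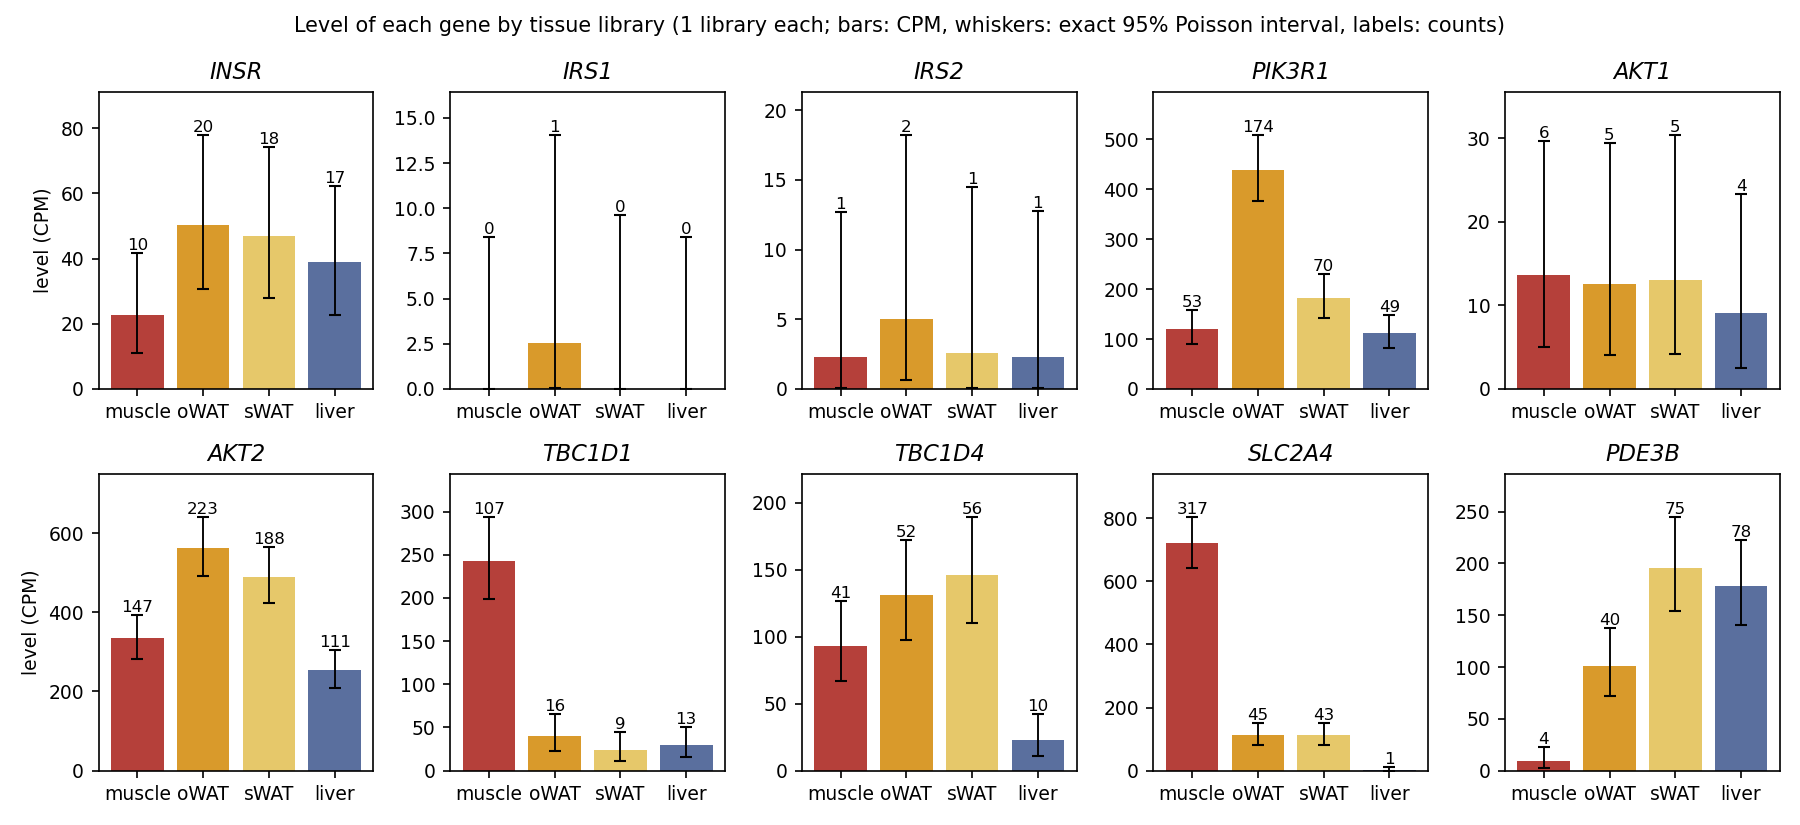
Level in CPM (y axis, from 0) of each of the 10 genes in the muscle, oWAT, sWAT and liver libraries (x axis); whiskers are exact 95% Poisson intervals of the count and the number above each bar is the count. SLC2A4 and TBC1D1 stood highest in muscle, PIK3R1 in oWAT, and PDE3B was lowest in muscle with 4 counts.

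At the top of the pathway, the receptor gene itself had few counts in every tissue. Whether that reflects its RNA level was not tested. INSR, which encodes the insulin receptor, had 10 counts (22.7 CPM, exact 95% Poisson interval 10.9 to 41.8) in muscle, 20 (50.4 CPM, 30.8 to 77.8) in oWAT, 18 (46.9 CPM, 27.8 to 74.1) in sWAT and 17 (38.8 CPM, 22.6 to 62.2) in liver. The point values run from oWAT through sWAT and liver to muscle, and no neighbours in that order differed beyond their intervals. Muscle was 0.451 times oWAT (0.189 to 1.01), 0.485 times sWAT (0.200 to 1.11) and 0.585 times liver (0.239 to 1.35), and INSR was not called in any of the 6 pairs. Its oWAT and sWAT values lay above liver with library totals (1.30-fold and 1.21-fold) and below liver with TMM factors, which scale libraries by a trimmed mean of their gene ratios (0.646 and 0.667 times).

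The substrates that dock onto the receptor were almost uncounted. The annotation and transcript lengths that could be counted are not known here, so low counts of IRS1, IRS2 and AKT1 in all 4 libraries describe what was assigned to these names, and whether they reflect the RNA level was not tested. IRS1 had 1 count in oWAT (2.52 CPM) and 0 in muscle, sWAT and liver, where a count of 0 allows up to 6.82, 7.81 and 6.86 CPM in that order (3 counts). IRS2 had 1 count in muscle, 2 in oWAT, 1 in sWAT and 1 in liver. No difference between tissues was detectable for either gene at this depth. For IRS2 in oWAT over liver, for example, the ratio of 2.21 had an interval of 0.115 to 130.

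PIK3R1 encodes the p85-alpha regulatory subunit that brings phosphatidylinositol 3-kinase to the substrates. It had 53 counts (120 CPM) in muscle, 174 (439 CPM) in oWAT, 70 (182 CPM) in sWAT and 49 (112 CPM) in liver. The oWAT library stood above the other 3, and muscle and liver were close together, at a ratio of 1.08 (0.716 to 1.62). PIK3R1 was higher in oWAT than in liver by 3.92-fold (2.84 to 5.49), and muscle was 0.275 times oWAT (0.198 to 0.376); both were called. The call over liver was lost with TMM (1.95-fold) and with DESeq2 size factors (1.97-fold), and the muscle call likewise (0.406 and 0.402 times). Between the WAT libraries PIK3R1 was 2.40-fold (1.81 to 3.22) in oWAT over sWAT, an interval that excludes 1 but reaches below the bound of 2. Mesothelial markers, too, were higher in oWAT than in sWAT: 10 of 12 had counts in oWAT, summing to 5174 CPM, against 3 of 12 and 148 CPM in sWAT. Both KRT8 and CALB2 were at 0 in oWAT, and in sWAT 9 markers including MSLN, WT1 and ITLN1 were at 0. Macrophage markers were also highest in oWAT, at 496 CPM in muscle, 1930 CPM in oWAT, 1368 CPM in sWAT and 754 CPM in liver; 10 of 12 were counted in muscle, where C1QA and MS4A7 were at 0, and all 12 elsewhere. Other marker sets were lower in oWAT than in sWAT: fibroblast (25124 against 68318 CPM), endothelial (2825 against 4874 CPM), smooth muscle and pericyte (1966 against 2782 CPM). Adipocyte markers were lower as well (23150 against 27458 CPM). The part of these cell types in the PIK3R1 differences was not tested.

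AKT2, the AKT form known for its role in glucose uptake, was counted well in all 4 tissues. It had 147 counts (334 CPM, 282 to 393) in muscle, 223 (562 CPM, 491 to 641) in oWAT, 188 (490 CPM, 422 to 565) in sWAT and 111 (254 CPM, 209 to 305) in liver. The intervals of oWAT and sWAT overlap, at a ratio of 1.15 (0.941 to 1.40), and both lie above those of muscle and liver. AKT2 in oWAT was 2.22-fold liver (1.76 to 2.81), in sWAT 1.93-fold liver (1.52 to 2.46) and in muscle 1.32-fold liver (1.02 to 1.70). None of these was called, since each interval reached below 2, and with TMM the same ratios were 1.10, 1.07 and 0.970. The shift is that of the scaling itself: TMM moved the median log2 ratio of all genes tested by -1.01 in oWAT over liver, -0.86 in sWAT over liver and -0.44 in muscle over liver. The highest level of AKT2 was 2.22 times its lowest. INSR, on far fewer counts, had the same ratio, and the other 5 genes with at least 10 counts had ratios from 3.92 (PIK3R1) to 315 (SLC2A4).

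AKT1, the more general form of the kinase, had 6 counts in muscle, 5 in oWAT, 5 in sWAT and 4 in liver, or 9.14 to 13.6 CPM. The share of AKT2 in the summed counts of the pair needs no library total. Being a share of assigned counts, it does not say which gene was the more abundant. It was 96.1% in muscle (exact 95% binomial interval 91.7 to 98.5), 97.8% in oWAT (95 to 99.3), 97.4% in sWAT (94.1 to 99.2) and 96.5% in liver (91.3 to 99). The 6 odds ratios between libraries ran from 0.550 to 1.61, and each interval included 1. At 4 to 6 AKT1 counts these intervals are wide, as in oWAT over liver (0.312 to 7.62), so a difference of several-fold in the balance could have gone undetected.

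The 2 proteins that hold GLUT4 vesicles back had unlike profiles: TBC1D1 separated muscle from the other tissues, and TBC1D4, by library totals, liver from the other tissues. TBC1D1, the Rab GTPase-activating protein known from muscle, where contraction also acts on it, had 107 counts (243 CPM) in muscle, 16 (40.3 CPM) in oWAT, 9 (23.4 CPM) in sWAT and 13 (29.7 CPM) in liver. Muscle stood apart, and the intervals of the other 3 libraries overlapped. TBC1D1 was higher in muscle by 6.03-fold over oWAT (3.55 to 10.9), 10.4-fold over sWAT (5.27 to 23.3) and 8.19-fold over liver (4.59 to 15.9), and it was called in each of these pairs under both other scalings too, at 8.91-fold over oWAT with TMM.

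TBC1D4, also known as AS160, is a main AKT substrate in GLUT4 control in adipocytes and muscle. It had 41 counts (93.2 CPM) in muscle, 52 (131 CPM) in oWAT, 56 (146 CPM) in sWAT and 10 (22.9 CPM) in liver. The first 3 libraries overlapped in their intervals and liver lay below them. TBC1D4 was called higher than liver in muscle (4.08-fold, 2.01 to 9.13), in oWAT (5.73-fold, 2.88 to 12.7) and in sWAT (6.38-fold, 3.23 to 14.0). All 3 calls rest on the scaling. With TMM the folds were 3.0, 2.86 and 3.53 and none was called, and the muscle call was also lost at totals without the most abundant genes (3.87-fold), after thinning to the smallest library (3.89-fold) and with a 99% interval. Endothelial markers, likewise lowest in liver, summed to 1469 CPM in muscle, 2825 CPM in oWAT, 4874 CPM in sWAT and 407 CPM in liver, where 10 of 12 had counts and CLDN5 and EMCN were at 0. Fibroblast markers summed to 18744, 25124, 68318 and 756 CPM in the same order of tissues, with 10 of 12 counted in liver and MFAP5 and PI16 at 0 there. Smooth muscle and pericyte markers summed to 1382, 1966, 2782 and 416 CPM, with 9 of 12 counted in liver and NOTCH3, CSPG4 and MCAM at 0 there. Macrophage, adipocyte and mesothelial markers were instead lowest in muscle, at 496, 2523 and 68.2 CPM, against 754, 8120 and 139 CPM in liver. The part of these cell types in the TBC1D4 difference was not tested.

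The balance between these related genes differed by tissue without any scaling. TBC1D4 made up 27.7% of the summed counts of TBC1D4 and TBC1D1 in muscle (20.7 to 35.7), 76.5% in oWAT (64.6 to 85.9), 86.2% in sWAT (75.3 to 93.5) and 43.5% in liver (23.2 to 65.5). The odds of TBC1D4 in muscle were 0.119 times those in oWAT (exact conditional 95% interval 0.0567 to 0.240) and 0.0626 times those in sWAT (0.0249 to 0.142). They were 4.15 times those of liver in oWAT (1.39 to 12.9) and 7.84 times in sWAT (2.40 to 27.5). Muscle and liver could not be told apart (0.50, 0.186 to 1.38), nor could oWAT and sWAT (0.525, 0.187 to 1.39). A share compares tissues; it does not say which gene was the more abundant, since the genes may be captured with unequal efficiency.

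**Figure D2:**
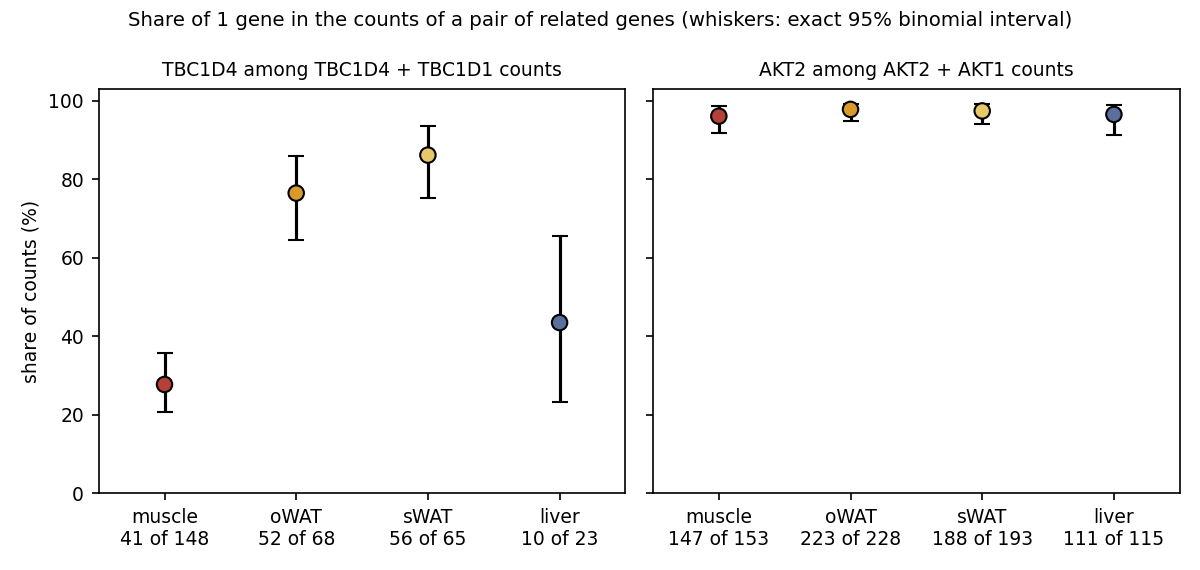
Share of TBC1D4 in the summed counts of TBC1D4 and TBC1D1 (left) and of AKT2 in those of AKT2 and AKT1 (right), in percent (y axis), by library (x axis, with the counts); whiskers are exact 95% binomial intervals. The TBC1D4 share was 27.7% in muscle against 76.5% in oWAT and 86.2% in sWAT, while the AKT2 share stayed between 96.1% and 97.8%.

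SLC2A4, which encodes GLUT4 itself, had the widest range of the 10 genes. It had 317 counts (721 CPM, 644 to 805) in muscle, 45 (113 CPM, 82.7 to 152) in oWAT, 43 (112 CPM, 81.1 to 151) in sWAT and 1 (2.29 CPM, 0.0579 to 12.7) in liver. Muscle was highest, the WAT libraries were alike within counting error, and liver had a single count. SLC2A4 was higher in muscle by 6.35-fold over oWAT (4.64 to 8.89) and 6.43-fold over sWAT (4.67 to 9.07). It was higher than in liver by 315-fold in muscle (56.2 to 12495), 49.6-fold in oWAT (8.46 to 2003) and 49.0-fold in sWAT (8.34 to 1980), ratios that rest on the 1 liver count. With TMM the liver ratios became 232, 24.7 and 27.1, and muscle was 9.39-fold over oWAT and 8.57-fold over sWAT; every call was kept. The ratio in oWAT over sWAT was 1.01 (0.652 to 1.58), so a difference inside these bounds was not detectable at this depth.

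Adipocytes, like myofibres, express SLC2A4, so adipocyte markers were read beside it, a comparison chosen after the data were seen. Muscle had 286 SLC2A4 counts for every 1000 adipocyte marker counts, against 4.90 in oWAT and 4.08 in sWAT. The list summed to 8120 CPM in liver from 10 of 15 markers, with LEP, PLIN1, CIDEC, CIDEA and PPARG at 0 there. Its counts may thus not come from adipocytes alone, and the part of adipocytes in the SLC2A4 counts was not tested. Of the 15 myofibre markers, 6 had counts in oWAT, 55 in all, and 8 had counts in sWAT, 54 in all. At 0 were 9 in oWAT, including ACTA1, MYH1, CKM and NEB, and 7 in sWAT, including MYH7, MYBPC1 and NEB. ACTA1, MYH1 and CKM had counts in sWAT. The part of myofibres in the SLC2A4 counts of oWAT and sWAT was not tested.

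PDE3B, the phosphodiesterase through which insulin restrains lipolysis in adipocytes, was lowest in the tissue where SLC2A4 was highest. It had 4 counts (9.09 CPM, 2.48 to 23.3) in muscle, 40 (101 CPM, 72.0 to 137) in oWAT, 75 (195 CPM, 154 to 245) in sWAT and 78 (178 CPM, 141 to 222) in liver. The muscle library was lowest and did not overlap with any other in its interval. By library totals, liver was as high as sWAT within counting error (sWAT over liver 1.10, 0.788 to 1.52). In muscle PDE3B was 0.0902 times oWAT (0.0234 to 0.25), 0.0465 times sWAT (0.0124 to 0.124) and 0.0510 times liver (0.0136 to 0.136), all called and all kept under the other scalings. In oWAT it was 0.566 times liver (0.376 to 0.838) and 0.516 times sWAT (0.342 to 0.767), intervals that exclude 1 but cross 0.5. With TMM the oWAT value became 0.282 times liver, which was called lower. The sWAT value was 0.606 times liver with TMM (0.435 to 0.842) and 0.628 times with DESeq2 size factors (0.451 to 0.873). Both intervals exclude 1 with liver higher, and neither ratio was called.

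Relative to adipocyte markers, a reading also chosen after the data were seen, PDE3B had 3.60 counts per 1000 marker counts in muscle, 4.35 in oWAT and 7.12 in sWAT. Liver had 22.0, against 3553 marker counts from the 10 of 15 adipocyte markers counted there, with LEP, PLIN1, CIDEC, CIDEA and PPARG at 0. The 4 muscle counts are too few to rank muscle against oWAT on this scale. Here too the marker counts may not come from adipocytes alone, and the part of adipocytes in the PDE3B counts was not tested.

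**Figure D3:**
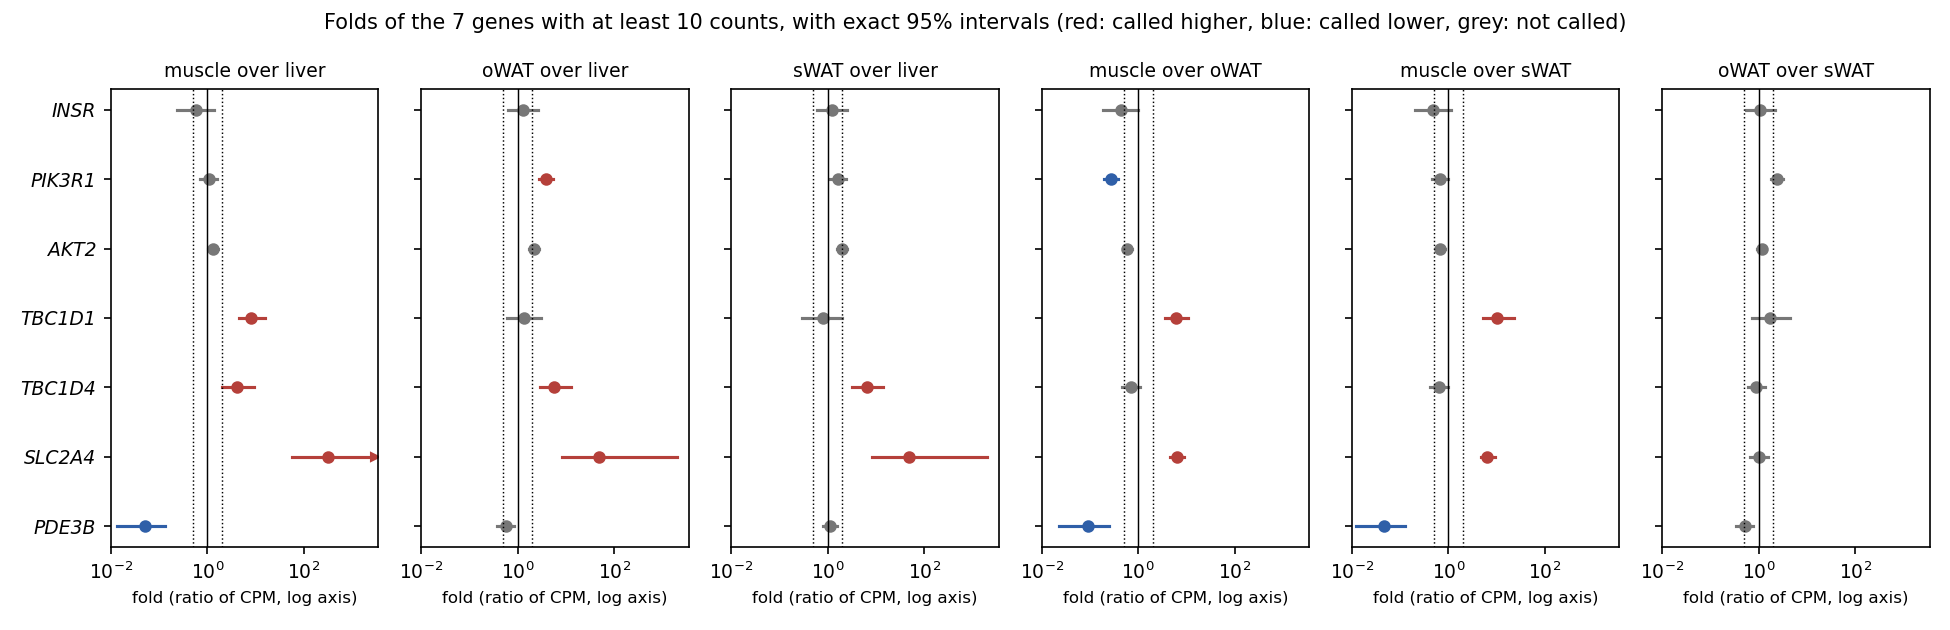
Ratio of CPM values (x axis, log scale) for the 7 genes with at least 10 counts in some library (rows), in each of the 6 pairs of libraries (panels); lines are exact 95% intervals, an arrow marks an interval that runs past the axis, and dotted lines mark 0.5 and 2. Intervals wholly beyond a dotted line are called, in red where higher and in blue where lower; in oWAT over sWAT none was.

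Across the pairs, the 7 genes with at least 10 counts were read against all genes tested by the same rule. Muscle over liver gave 3 higher (TBC1D1, TBC1D4 and SLC2A4) and 1 lower (PDE3B), where 19.1% of 6997 genes were higher and 12.5% lower. For oWAT over liver 3 were higher (PIK3R1, TBC1D4 and SLC2A4) and 0 lower, against 22.9% and 8.63% of 7401 genes. For sWAT over liver 2 were higher (TBC1D4 and SLC2A4) and 0 lower, against 20.7% and 9.58% of 7011 genes.

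Muscle over oWAT gave 2 higher (TBC1D1 and SLC2A4) and 2 lower (PIK3R1 and PDE3B), against 6.56% and 10.2% of 7345 genes. In muscle over sWAT 2 were higher (the same 2 genes) and 1 lower (PDE3B), against 7.63% and 9.52% of 7028 genes. The oWAT over sWAT pair gave 0 in either direction, against 1.34% and 0.653% of 7040 genes. Pairs that share a library are not independent of each other. These are counts over the 7 genes that passed the minimum of 10 counts, given as a description. With TMM the shares of all genes tested that were higher and lower became 13.4% and 15.4% in muscle over liver, 8.82% and 13.7% in oWAT over liver, and 10.1% and 14.5% in sWAT over liver. They became 9.72% and 4.51% in muscle over oWAT, 10.3% and 5.01% in muscle over sWAT, and 1.14% and 0.994% in oWAT over sWAT.

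Set against each of the other 3 libraries at once, TBC1D1 and SLC2A4 were higher in muscle (6.71% of the 5809 genes with at least 10 muscle counts were) and PDE3B was lower in muscle (2.2% of 3813 genes with at least 10 counts in each other library). TBC1D4 and SLC2A4 were lower in liver (11.8% of 4616). None of the 7 was higher in oWAT (0.701% of 6563 genes), in sWAT (0.434% of 5997) or in liver (10.8% of 4944) than in each other library, and none was lower in oWAT (0 of 3501) or in sWAT (0.0277% of 3616). Median log2 ratios of the 7 genes lay close to those of all genes tested: 0.40 against 0.56 in muscle over liver, 1.14 against 1.0 in oWAT over liver, 0.70 against 0.79 in sWAT over liver. They were -0.75 against -0.57 in muscle over oWAT, -0.59 against -0.38 in muscle over sWAT, and 0.10 against 0.18 in oWAT over sWAT. These medians cover only genes that passed the count minimum, and TMM shifts both medians of a pair together.

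**Figure D4:**
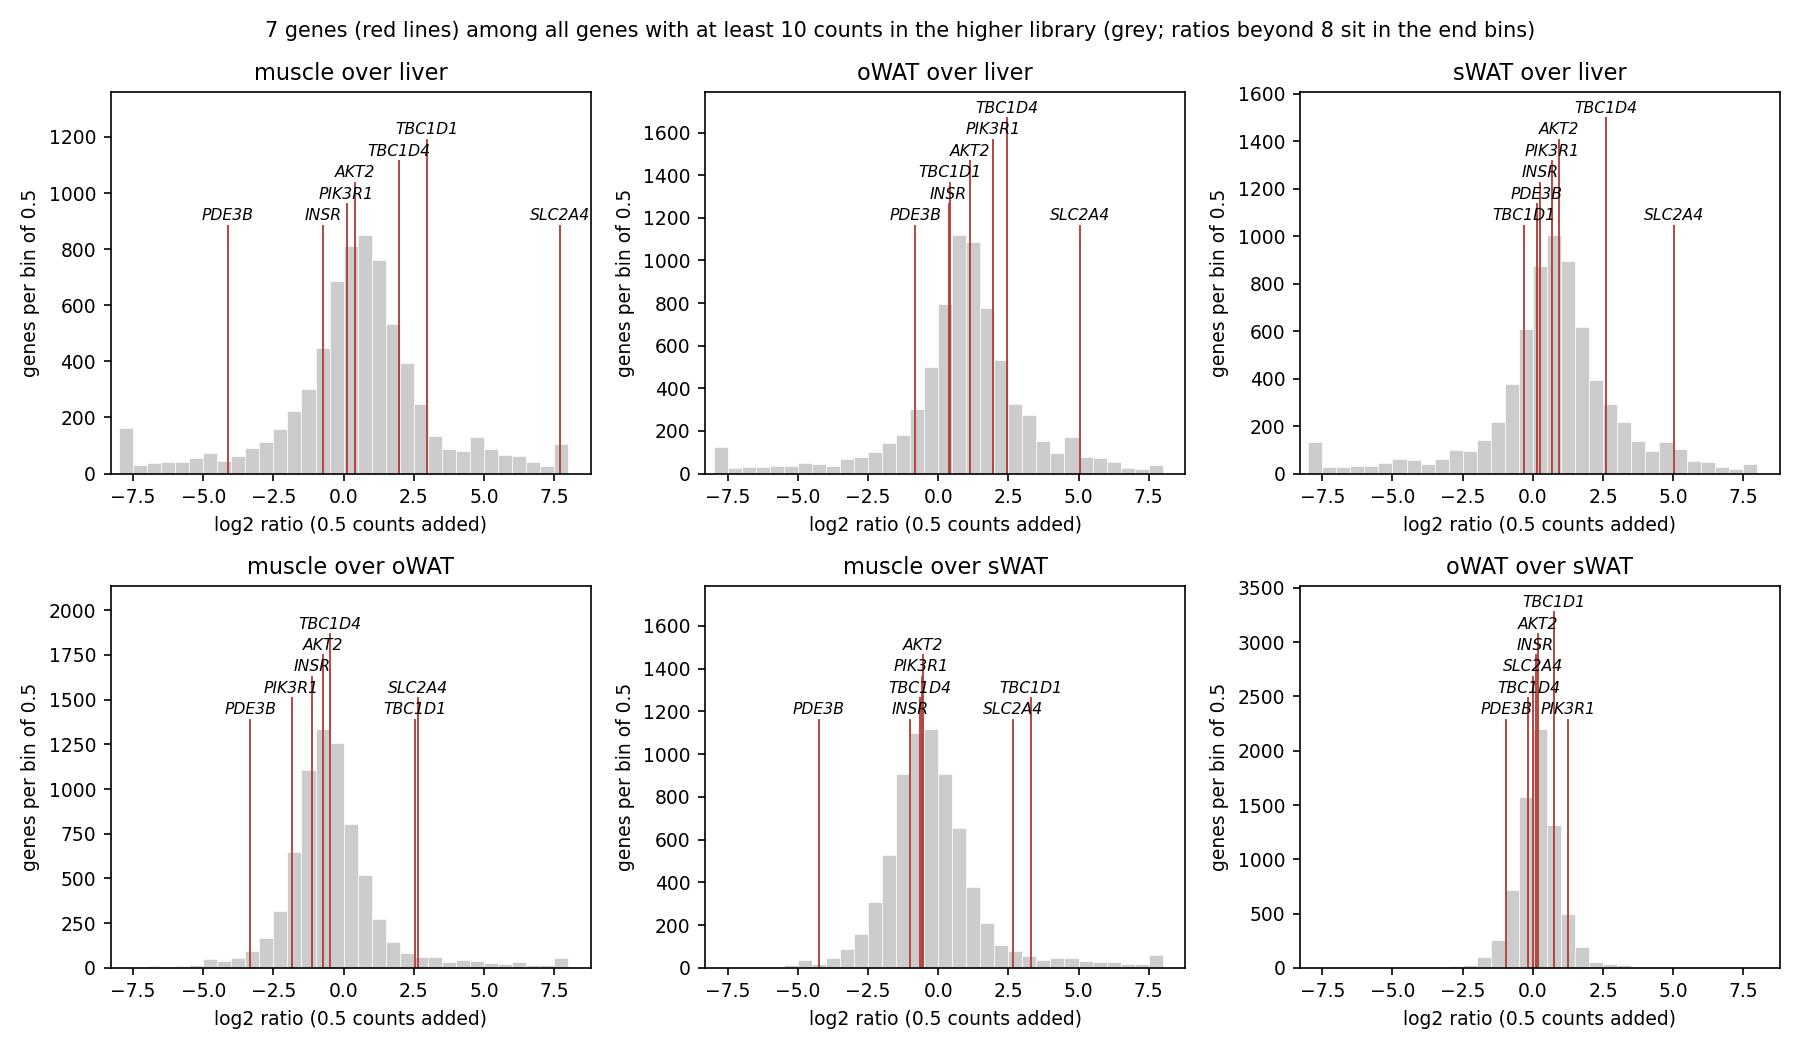
Distribution of log2 CPM ratios, with 0.5 counts added, of all genes with at least 10 counts in the higher library (grey, number of genes per bin) in the 6 pairs of libraries, with the 7 genes as red lines whose height only separates the names. SLC2A4 and PDE3B lie on opposite tails wherever muscle is compared, and in oWAT over sWAT the outermost genes are PIK3R1 (log2 ratio 1.26) and PDE3B (-0.95).

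Other genes of the pathway were read from 6 lists. From each list, genes among the 4 with most counts are given with their counts, and those higher in 1 library than in each of the other 3; genes named without counts were named after their calls were seen. The list counts stand beside the shares of all genes tested that were higher than in liver by library totals, 19.1% for muscle, 22.9% for oWAT and 20.7% for sWAT; with TMM they were 13.4%, 8.82% and 10.1%. In the list of receptor, adaptor and PI3-kinase genes 18 of 22 were counted. Higher than in liver were 5 of 11 tested in muscle, 7 of 14 in oWAT and 5 of 14 in sWAT, with 1 lower in each, PIK3C2G; with TMM each of the higher counts was 2. PIK3R3, a regulatory subunit related to PIK3R1, and FLOT2 were higher than liver in all 3 tissues by library totals, and with TMM neither was in any. SHC1, an adaptor that links receptors to the Ras pathway, had 142 counts in muscle, 516 in oWAT, 378 in sWAT and 69 in liver. SHC1 was called higher than in liver by 8.25-fold in oWAT (6.40 to 10.8) and by 6.24-fold in sWAT (4.82 to 8.19). The membrane scaffold genes FLOT1 and FLOT2 had 83 and 79 counts in muscle, 90 and 78 in oWAT, 43 and 56 in sWAT, and 15 and 18 in liver.

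SH2B2, an adaptor also called APS that binds the insulin receptor, had 71 counts in muscle against 6 in oWAT, 3 in sWAT and 2 in liver, a ratio of 10.7 over oWAT (4.67 to 30.1). PIK3C2G, a class II phosphatidylinositol 3-kinase, was counted in liver alone, with 0 in muscle, oWAT and sWAT against 49 in liver.

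Among genes around AKT, 22 of 24 were counted, and 4 of 16, 4 of 15 and 2 of 15 tested were higher than liver in muscle, oWAT and sWAT; with TMM these counts were 2, 0 and 0. RHEB, the GTPase that TSC2 acts on, was among them in all 3 tissues by library totals and in none with TMM (4.21-fold, 4.05-fold and 2.99-fold). PDPK1, the kinase PDK1 that phosphorylates AKT, was among them in muscle and oWAT by library totals. MAPKAP1, a subunit of the kinase complex mTORC2 that phosphorylates AKT, had 69 counts in muscle, 29 in oWAT, 27 in sWAT and 17 in liver. Values were closer for TSC2, the AKT target that restrains mTORC1 (55, 90, 63 and 32), and for the kinase SGK1 (56, 59, 50 and 43). RHEB had 46, 59, 38 and 8. PRKCQ, protein kinase C theta, had 88 counts in muscle, 2 in oWAT, 12 in sWAT and 0 in liver; it was 6.40-fold higher in muscle than in sWAT (3.49 to 12.9).

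Of 23 negative regulators 22 were counted. In muscle over liver 5 of 16 were higher and 3 lower, in oWAT over liver 4 of 15 and 1, and in sWAT over liver 4 of 15 and 2. AHSG was lower each time, ENPP1 and PTPRF in muscle, and GRB7 in sWAT. With TMM the muscle list gave 2 higher and 3 lower, the oWAT list 0 higher and 3 lower, and the sWAT list 0 higher and 7 lower. Of all genes tested, 15.4%, 13.7% and 14.5% were lower than liver with TMM in that order. The phosphatase subunits PPP2CA and PPP2R1A had 182 and 168 counts in muscle, 137 and 139 in oWAT, 108 and 99 in sWAT, and 67 and 38 in liver. The tyrosine phosphatase PTPN11 had 80 counts in muscle, 89 in oWAT, 130 in sWAT and 31 in liver. PTPRF, a receptor phosphatase that acts on the insulin receptor, had 18 in muscle against 144 in oWAT, 87 in sWAT and 144 in liver, and was lower in muscle at 0.113 times oWAT (0.0650 to 0.185).

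TRIB1, a pseudokinase, was higher in muscle than in each other library with 113 counts, against 31 in oWAT, 13 in sWAT and 34 in liver; its call over liver was lost with TMM (2.43-fold). MSTN, the muscle growth inhibitor myostatin, had 16 counts in muscle and 0 elsewhere. AHSG, a plasma protein made in hepatocytes that inhibits the receptor kinase, had 330 counts in liver and 0 in the other 3 libraries.

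Genes of GLUT4 vesicle traffic were the fullest list, with 29 of 30 counted. In oWAT 11 of 25 and in sWAT 9 of 23 were higher than in liver and 0 lower; in muscle 4 of 23 were higher (SORT1, RAB10, CLTCL1 and TRARG1) and 1 lower (SEC16A). With TMM the higher counts were 3 in oWAT, 3 in sWAT and 4 in muscle, and the lower counts were 1, 1 and 2. The median log2 ratio of the list was 1.69 in oWAT over liver against 1.0 for all genes tested, and 1.39 against 0.79 in sWAT over liver. It was 0.81 against 0.56 in muscle over liver and -0.65 against -0.57 in muscle over oWAT. Medians of the other lists ran from 0.71 to 2.17 in oWAT over liver and from 0.62 to 1.74 in sWAT over liver. Negative regulators were lowest and receptor, adaptor and PI3-kinase genes highest in both. RAB10, the Rab that TBC1D4 acts on in adipocytes, had 442 counts in muscle, 187 in oWAT, 166 in sWAT and 62 in liver, and MYO1C, the motor that helps dock the vesicles, had 94, 396, 389 and 63. SORT1 (sortilin), which sorts cargo into the vesicles, had 188, 133, 153 and 23, and LRP1, a receptor found in the same vesicles, had 50, 172, 234 and 112. RAB10 was 7.09-fold higher in muscle than in liver (5.43 to 9.41), a call that TMM kept. Its calls over liver in oWAT and sWAT were lost with TMM (1.66-fold and 1.69-fold). With TMM it was also called higher in muscle than in oWAT (3.15-fold) and sWAT (3.095-fold), calls not made by library totals.

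CLTCL1, the clathrin heavy chain CHC22 that acts in GLUT4 sorting in human muscle, had 77 counts in muscle, 10 in oWAT, 12 in sWAT and 0 in liver. It was higher in muscle by 6.95-fold over oWAT (3.58 to 15.1), 5.6-fold over sWAT (3.03 to 11.3) and at least 25.5-fold over liver when a floor of 3 counts stands for 0, with an exact lower limit of 20.3 for that ratio. TRARG1, a vesicle protein known from adipocytes and named after its values were seen, went the other way, with 29 counts in muscle, 169 in oWAT, 126 in sWAT and 0 in liver; muscle was 0.155 times oWAT (0.101 to 0.231).

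Other sugar transporters and hexokinases split by tissue. Of 16 genes 14 were counted, and in muscle over liver 2 of 7 were higher and 3 lower, in oWAT and in sWAT over liver 3 of 8 each way. With TMM the higher counts were 2 for muscle, 2 for oWAT and 1 for sWAT, with 3 lower in each. The 3 lower ones were the same each time and included SLC2A2 (GLUT2), which had 0 counts in muscle, oWAT and sWAT against 255 in liver. SLC2A5, the fructose transporter GLUT5, had 166 counts in muscle, 22 in oWAT, 11 in sWAT and 0 in liver, and was 6.81-fold higher in muscle than in oWAT (4.35 to 11.2). HK1, a hexokinase, had 252 in muscle, 134 in oWAT, 154 in sWAT and 6 in liver, and the transporter SLC2A10 had 20, 28, 35 and 15.

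The arm that links cyclic AMP to lipolysis had 15 of 21 genes counted. Of these 4 of 8 tested were higher in muscle than in liver (PDE4A, PDE4B, PDE4D and AKAP12) and 1 lower (PDE8A), 3 of 11 higher in oWAT and 4 of 11 higher in sWAT, with 0 lower in either. With TMM the higher counts were 2 for muscle, 3 for oWAT and 3 for sWAT. The AKAP12 call in muscle over liver was lost (3.77-fold). Between muscle and sWAT 2 of 12 were higher and 4 lower, where 7.63% and 9.52% of all genes tested were. With TMM 2 were higher and 0 lower, where 10.3% and 5.01% of all genes tested were. PDE4A, another cyclic AMP phosphodiesterase, had 188 counts in muscle, 31 in oWAT, 27 in sWAT and 1 in liver, and was 5.47-fold higher in muscle than in oWAT (3.73 to 8.28), the reverse of PDE3B. AKAP12, an anchoring protein for protein kinase A, had 36, 155, 118 and 7, AKAP1 had 113, 162, 106 and 89, and the catalytic subunit PRKACB had 20, 48, 61 and 23. In oWAT over sWAT 0 of the 84 genes tested from all 6 lists were called in either direction. Of all genes tested in that pair, only 1.34% were higher and 0.653% lower.

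**Figure D5:**
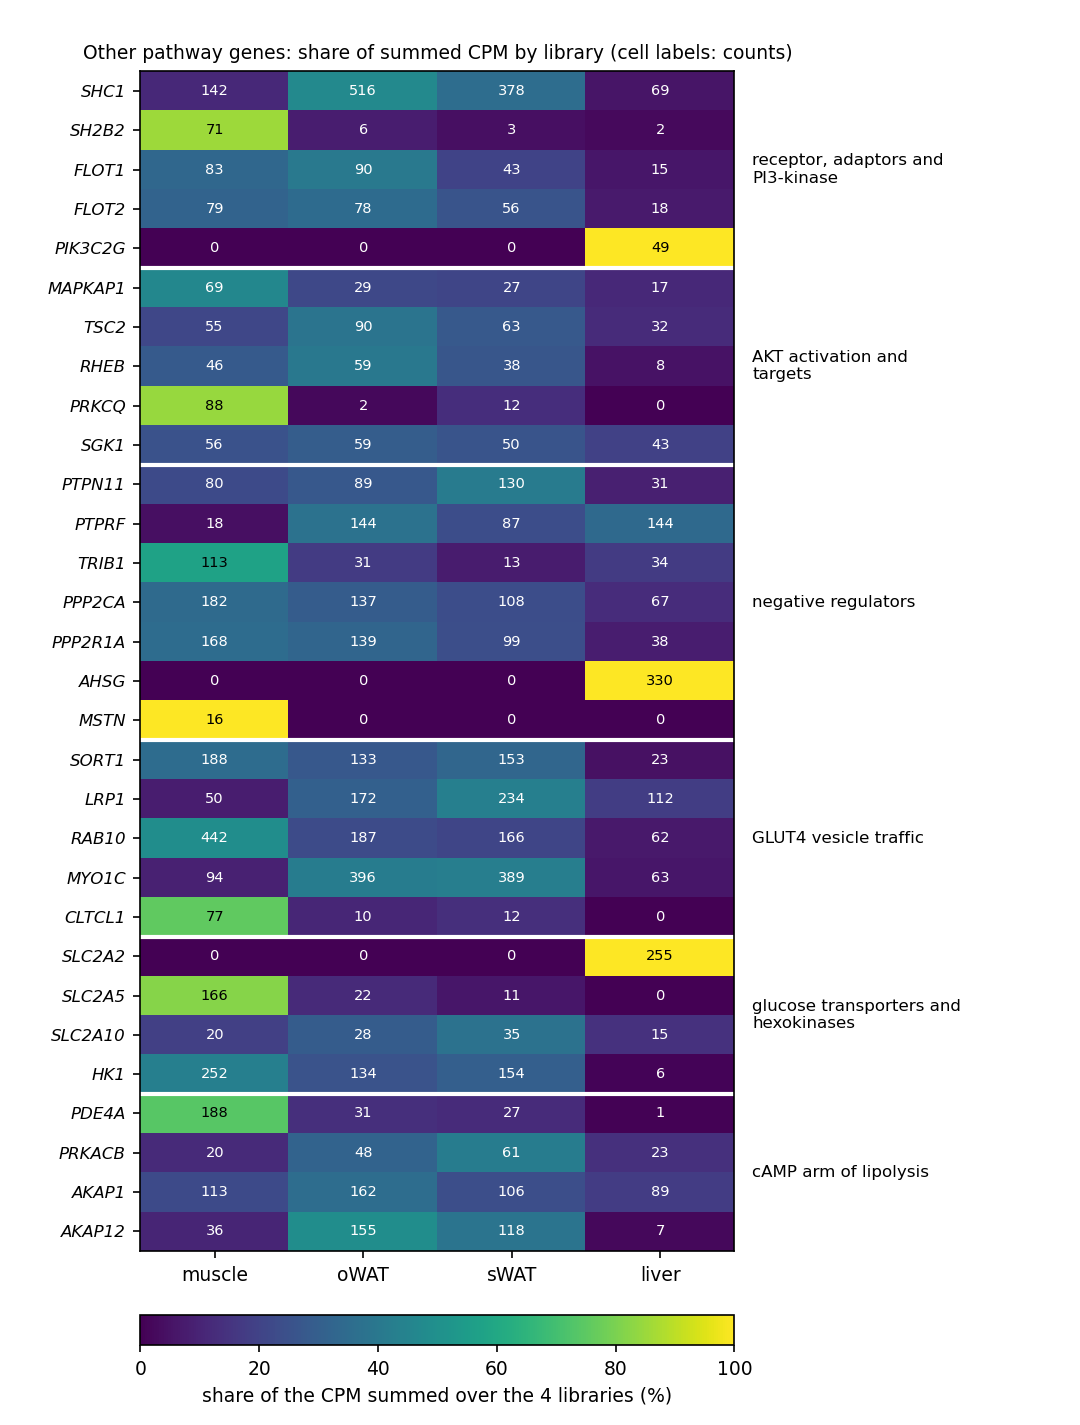
Share of the CPM summed over the 4 libraries (colour, percent) for genes named from the 6 pathway lists (rows, grouped by list) in muscle, oWAT, sWAT and liver (columns); the number in each cell is the count. SH2B2, PRKCQ, CLTCL1, SLC2A5 and PDE4A concentrate in muscle, and PIK3C2G, AHSG and SLC2A2 in liver.

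The genes most like each of the 7 were found from the share of their summed CPM in each library, by Euclidean distance in percentage points, among 6423 genes with at least 40 counts. SLC2A4 had 76.0% of its summed CPM in muscle, 12% in oWAT, 11.8% in sWAT and 0.241% in liver. Nearest to it were CLTCL1 (2.05 points away), PDE4A (2.61) and MAPRE3 (2.73). TBC1D1 was nearest to LAPTM4B (0.860), FBXL4 (1.11) and PSTPIP2 (3.21), and TBC1D4 to MMRN2 (1.18), BSG (1.18) and TMEM222 (1.31). PDE3B was nearest to TRAM1 (3.77), TNFSF10 (4.29) and PTGR1 (4.39), PIK3R1 to AKR7A2 (2.88), PTAR1 (3.37) and SEMA4B (3.78), AKT2 to COPG2 (0.917), ASCC2 (1.18) and PSMA1 (1.41), and INSR to DAP (1.65) and BAZ1A (2.38). With 4 libraries per gene these are descriptions, and 14 of the 21 nearest genes found stayed among the nearest with TMM scaling, CLTCL1 and PDE4A included.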

How the data were processed

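The authors deposited whole-number counts per gene for each library, not normalized, with genes of at least 1 count listed; an unlisted gene was taken as 0. Libraries were sequenced on a PacBio Sequel II, per the labels' protocols, and the submitters' processing notes name minimap2 2.24, a long-read aligner. Genome build, annotation, counting, filters and strand use were not given in the sources used here, and no coordinates are reported. Each table was assigned to a tissue by its sample record; those of oWAT and sWAT are called eWAT and iWAT in the deposit. An entry that names no gene (14.3% of counts in muscle, 19.5% in oWAT, 16.6% in sWAT, 19.2% in liver) was left out of totals.

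All 10 symbols matched the RefSeq table of T2T-MFA8v1.1. Counts were scaled to CPM and compared in 6 pairs with exact Clopper-Pearson intervals. Lists were described by counts of calls and by the median log2 ratio after adding 0.5 counts. The 10 genes, the lists and the marker sets were chosen with earlier results of these data known. Genes named from a list were its 4 with the most counts and any higher in 1 library than in each other; TRARG1 and genes named without counts are exceptions, and a few genes are not reported here. edgeR 4.0.16 and DESeq2 1.42.0 (R 4.3.3) gave scaling factors alone: TMM factors were 0.911 for muscle, 1.35 for oWAT, 1.21 for sWAT and 0.671 for liver. Python 3.11.15 with NumPy 2.4.6, pandas 2.3.3, SciPy 1.17.1 and matplotlib 3.10.9 did the rest. The calling rule was tested on simulated data. Intervals and floors cover counting error only, and they treat every count as a separate molecule. No molecular identifiers are described, so whether that holds was not tested.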

Additional observations from a re-analysis of the deposited data

How the results depend on the processing

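No paired analysis was possible because each tissue has 1 library. Of the 42 pairwise folds of the 7 genes, 16 were called; the minimum counts of 5, 20 or none and totals with the entry that names no gene changed no call, and no called fold changed its direction under any alternative run. For the called counts of these genes, the alternatives outside 1.5 times were as follows. With TMM or DESeq2 scaling, oWAT over liver gave 1 higher and 1 lower in place of 3 and 0, sWAT over liver 1 higher in place of 2, and muscle over oWAT 1 lower in place of 2. A bound of 4 gave 1 higher in oWAT and in sWAT over liver and 1 in each direction in muscle over oWAT. A bound of 1 gave 1 lower in oWAT than in liver, 4 higher in sWAT than in liver, 4 lower in muscle than in sWAT, and 1 higher and 1 lower in oWAT over sWAT. Scaled to the adipocyte marker counts, an alternative added after the data were seen, PIK3R1 in oWAT over sWAT reached 2.85-fold and was called. TMM and DESeq2 scaling moved the medians of the 7 genes and of all genes together, so that the distance between them stayed the same: -0.17 in muscle over liver with either. The members' median itself changed sign with TMM in muscle over liver (-0.046), sWAT over liver (-0.16) and oWAT over sWAT (-0.049).

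Over all genes, calls higher in oWAT than in liver numbered 1695 and became 653 (TMM) and 660 (DESeq2); the 639 lower calls became 1015 and 1007. For sWAT over liver 1450 higher became 710 and 726, and 672 lower became 1018 with TMM. Lower calls in muscle than in oWAT (750) became 331 and 344, and in muscle than in sWAT (669) 352 and 387; lower calls in oWAT than in sWAT (46) became 70 and 82. A 99% interval gave 499 lower in muscle than in oWAT and 28 lower in oWAT than in sWAT. With bounds of 1 and 4, muscle over liver gave 2792 and 621 higher and 1436 and 541 lower, oWAT over liver 3814 and 655 higher and 1012 and 409 lower, and sWAT over liver 3154 and 646 higher, with 1104 lower at a bound of 1. Muscle over oWAT gave 1022 and 271 higher and 2758 and 179 lower, muscle over sWAT 1229 and 291 higher and 2268 and 144 lower, and oWAT over sWAT 1059 and 33 higher and 539 and 3 lower. Calls in the pathway lists over the 6 pairs, 98 higher and 40 lower in the first-named library, became 56 higher with TMM and 56 with DESeq2 scaling, 191 and 99 at a bound of 1, and 35 and 18 at a bound of 4. A looser or stricter bound changes these counts by construction; beyond the shift of all ratios by the factors, the cause of the scaling differences was not tested. AKT1, IRS1 and IRS2 had under 10 counts in every library, so no call could be made for them.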
